A study of Mus musculus with 24 samples.

Results

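The genes described here are the monocyte-attracting chemokines and the CSF1 axis. They comprise the chemokine ligands Ccl2, Ccl7, Ccl12, Ccl5, Ccl20 and Cx3cl1, the chemokine receptor Ccr2, the growth factor Csf1 and its receptor Csf1r. They were chosen by symbol, and all 9 were found among the 12091 genes of the deposited table.

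Chemokines are small secreted proteins that direct the migration of leukocytes through G protein-coupled receptors. CCL2, CCL7 and, in the mouse, CCL12 bind CCR2 and draw inflammatory monocytes from bone marrow and blood into tissue, where CSF1, acting on the tyrosine kinase CSF1R, keeps monocytes and macrophages alive and drives their differentiation. In mammary tumors, cancer cells are a known source of CCL2 and CSF1, whereas CCR2 and CSF1R are carried mainly by myeloid cells.

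RNA sequencing values were analysed for 24 samples of 4 experiments, each with 3 control and 3 PTN-inhibited samples. PTN (pleiotrophin) is a secreted heparin-binding growth factor, and the comparisons ask how its blocking or knockdown bears on gene expression in mammary tumors and tumor cells. The methods call the replicates biological. Each tumor sample carries its own number in its description, which the labels do not call an animal, and the labels of the cells name no single culture. The p-values measure the spread between these samples.

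In the tumor experiments, mice received the control mouse IgG C44 or the anti-PTN monoclonal antibody 3B10, both at 15 mg/kg. 4T1 tumors grew from a BALB/c mammary carcinoma line implanted in the mammary fat pad of female BALB/c mice at 8 wk of age, hosts with an intact immune system. MMTV-PyMT tumors arose in FVB/N mice carrying polyoma middle T as a transgene under the mouse mammary tumor virus promoter, and these mice were treated from 8 to 12 wk of age. In the cell experiments, E0771, a mammary adenocarcinoma line from C57BL/6 mice, and E0771-LG, a line derived from a lung metastasis of E0771, carried either a control vector (shCtrl) or an shRNA against PTN (shPTN) and were grown in medium with serum. The knockdown rests on 1 shRNA construct, the control vector targets EGFP, and shCtrl and shPTN cells were selected with puromycin as separate populations, so effects of selection and of the shRNA cannot be told apart.

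The deposited values are on a log2 scale. In the MMTV-PyMT tumors and the cells they are log2 CPM (reads of a gene scaled to 1 M reads, with an offset of 0.5 reads), from which whole reads were recovered, and depth lay between 15.63 and 21.12 M reads per sample. Values of the 4T1 tumors were taken to be normalized for gene length as well, which was inferred from their slope on gene length. Their depth is unknown, so these values are given as log2 values without reads. Their levels are not compared with those of the other samples, and only differences from a group or model mean are set side by side. The lowest value in each 4T1 sample was −0.98, shared by 80 to 131 genes. Pairs of replicates correlated across genes with an r between 0.967 and 0.990, and no 2 samples of a group held identical values. Differences are PTN-inhibited minus control, or E0771-LG minus E0771, and a gene is said to have risen or fallen where limma's p-value, adjusted by the Benjamini-Hochberg method over all genes tested, was under 0.05.

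Ptn, the gene targeted by the shRNA, was 2.90, 2.18 and 2.28 log2 CPM in E0771shCtrl and −0.63, 0.25 and 0.53 in E0771shPTN. In E0771-LG cells it was 3.65, 4.51 and 3.74 log2 CPM with shCtrl and 1.42, 0.98 and 1.38 with shPTN. In both lines each shPTN sample lay below each shCtrl sample, with 12 to 56 reads left per shPTN sample, so the labels of the cells match the targeted gene. Ptn RNA does not check the labels of the tumors, where an antibody against the protein was used. Its log2 values were −0.19, −0.65 and −0.12 with C44 and −0.76, 0.86 and 0.37 with 3B10 in 4T1 tumors, close to the lowest value of the samples. In MMTV-PyMT tumors they were 2.80, 2.73 and 3.42 with C44 and 3.28, 2.95 and 4.22 with 3B10.

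Ccl2 (ENSMUSG00000035385) encodes monocyte chemoattractant protein 1, the principal CCR2 ligand. In GRCm38 it lies on the plus strand at chr11:82035571-82037453, upstream of Ccl7 (ENSMUSG00000035373, chr11:82045712-82047525) and Ccl12 (ENSMUSG00000035352, chr11:82101845-82103400) on the same strand. The longest stretch shared between transcripts of these CC chemokines was 23 bases, between Ccl2 and Ccl7. In the control cells Ccl2 was 6.12, 6.56 and 6.62 log2 CPM in E0771shCtrl, with 1203 to 1921 reads, and 8.83, 9.02 and 8.84 in E0771-LGshCtrl, with 7865 to 10147 reads. In the knockdown cells it was 5.36, 4.37 and 4.87 log2 CPM in E0771shPTN and 7.64, 7.97 and 7.86 in E0771-LGshPTN. The 4 groups did not overlap, and they ranked E0771shPTN, E0771shCtrl, E0771-LGshPTN, E0771-LGshCtrl from lowest to highest. Within E0771, Ccl2 fell by 1.57 on the log2 scale (SE 0.24, 2.96-fold, adjusted p = 0.00284), lower in 3 of 3 shPTN samples. Within E0771-LG it fell by 1.07 (SE 0.11, 2.1-fold, adjusted p = 5.71e-05), again in 3 of 3 samples. The 2 knockdown effects differed by 0.50 (SE 0.29, adjusted p = 0.207 by limma's interaction term), which did not pass the test, although without replicate 1 of E0771shPTN it was 0.75 (adjusted p = 0.0193).

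Ccl7, which binds CCR2 together with other CC receptors, was 2.50, 3.11 and 2.72 log2 CPM in E0771shCtrl and 3.12, 2.03 and 2.50 in E0771shPTN, with 73 to 176 reads. In E0771-LG cells it was 5.54, 5.41 and 5.18 log2 CPM with shCtrl and 4.35, 4.40 and 4.28 with shPTN, with 338 to 833 reads. Its groups overlapped in E0771, where the highest and the lowest sample were both shPTN, and did not overlap in E0771-LG. The log2 difference was −0.23 in E0771 (SE 0.29, adjusted p = 0.623), with 2 of 3 shPTN samples below the control mean. In E0771-LG Ccl7 fell by 1.04 (SE 0.13, 2.05-fold, adjusted p = 0.000192), in 3 of 3 samples, a call that is lost in a fit of all 24 samples with 1 estimate of the spread (−1.04, adjusted p = 0.135). The difference between these effects was −0.81 (SE 0.33, adjusted p = 0.0679), which did not pass the test. It passed without replicate 2 of E0771shCtrl (−0.98, adjusted p = 0.0386), without replicate 2 of E0771shPTN (−1.07, adjusted p = 0.0131), with a pseudocount of 1 (−0.81, adjusted p = 0.0404) and with median-of-ratios scaling (−0.86, adjusted p = 0.0478).

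Ccl12, another CCR2 ligand, had 0 reads in all 6 E0771 samples. In E0771-LGshCtrl it had 0, 16 and 5 reads and in E0771-LGshPTN 0, 0 and 2. It was not tested in the cells, since no line held 3 samples with at least 1 CPM.

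Ccl5 (ENSMUSG00000035042, minus strand, chr11:83525778-83530518), a chemokine that attracts T cells and monocytes, was 2.15, 2.75 and 2.64 log2 CPM in E0771shCtrl and 1.57, 0.25 and 1.78 in E0771shPTN. In E0771-LG cells it was 3.45, 4.53 and 3.89 log2 CPM with shCtrl and 3.30, 4.16 and 3.92 with shPTN. Each E0771shPTN sample was below each E0771shCtrl sample, replicate 2 by the most with 21 reads, whereas the groups of E0771-LG overlapped. Ccl5 fell in E0771 by 1.31 (SE 0.39, 2.48-fold, adjusted p = 0.0344), in 3 of 3 samples. The call is lost without replicate 2 of E0771shCtrl (log2 difference −1.19, adjusted p = 0.126) or replicate 3 (−1.25, adjusted p = 0.11), with no filter (−1.31, adjusted p = 0.0759) and with all 24 samples in one fit (−1.31, adjusted p = 0.075). Without replicate 2 of E0771shPTN the difference was −0.84 (adjusted p = 0.0444). In E0771-LG the log2 difference was −0.17 (SE 0.30, 95% interval −0.85 to 0.52, adjusted p = 0.678). The effects differed by 1.15 (SE 0.54, adjusted p = 0.117), which did not pass the test.

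Ccl20 (ENSMUSG00000026166, plus strand, chr1:83116766-83119167), the ligand of CCR6 on dendritic cells and lymphocytes, had 4, 3 and 1 reads in E0771shCtrl and 9, 2 and 8 in E0771shPTN. In E0771-LG cells it was 2.07, 3.06 and 2.68 log2 CPM with shCtrl, from 72, 163 and 119 reads, and 3.85, 4.89 and 4.86 with shPTN, from 304, 535 and 506 reads. Each E0771-LG sample had more reads than any E0771 sample, and each E0771-LGshPTN sample had more than any E0771-LGshCtrl sample. It rose with shPTN in E0771-LG by 1.93 (SE 0.33, 3.81-fold, adjusted p = 0.00195), in 3 of 3 samples, and was the only member to rise in a knockdown comparison. In E0771 it was not tested. Summed over the 3 samples, 19 reads of 53.00 M in E0771shPTN stood against 8 of 54.29 M in E0771shCtrl, a ratio of 2.43 (95% exact interval 1.02 to 6.42). This interval, like the others on reads given here, covers counting error only. The receptor gene Ccr6 is not in the deposited table.

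Cx3cl1 (ENSMUSG00000031778, plus strand, chr8:94772009-94782427) encodes fractalkine, a membrane-anchored chemokine that is shed by the proteases ADAM10 and ADAM17 and binds CX3CR1 on monocytes. It was 4.11, 4.54 and 4.32 log2 CPM in E0771shCtrl and 4.82, 4.37 and 4.70 in E0771shPTN, with 297 to 546 reads. In E0771-LG cells it was 4.97, 4.76 and 4.93 log2 CPM with shCtrl and 4.50, 4.51 and 4.40 with shPTN, with 368 to 567 reads. In E0771 the groups overlapped and 3 of 3 shPTN samples were above the control mean, whereas in E0771-LG each shPTN sample was below each shCtrl sample. The log2 difference was 0.30 in E0771 (SE 0.16, adjusted p = 0.206). In E0771-LG Cx3cl1 fell by 0.42 (SE 0.13, 1.33-fold, adjusted p = 0.0195). The knockdown effects differed by −0.72 (SE 0.20, 95% interval −1.16 to −0.29, adjusted p = 0.0141 by the interaction term), which passed the test. The fall in E0771-LG is not called without replicate 3 of E0771-LGshCtrl (−0.40, adjusted p = 0.0744), replicate 2 of E0771-LGshPTN (−0.44, adjusted p = 0.0516) or replicate 3 of E0771-LGshPTN (−0.38, adjusted p = 0.0747). With all 24 samples in one fit neither the fall (−0.42, adjusted p = 0.0888) nor the interaction (−0.72, adjusted p = 0.0606) is called.

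Csf1 (ENSMUSG00000014599, minus strand, chr3:107741048-107760469) encodes the growth factor of monocytes and macrophages and was well covered, with 2273 to 5324 reads per cell sample. It was 7.44, 7.15 and 7.35 log2 CPM in E0771shCtrl and 7.48, 7.74 and 7.62 in E0771shPTN. In E0771-LG cells it was 7.86, 7.93 and 8.16 log2 CPM with shCtrl and 7.41, 7.05 and 7.03 with shPTN. The directions in the 2 lines were opposite: each E0771shPTN sample was above each E0771shCtrl sample and each E0771-LGshPTN sample was below each E0771-LGshCtrl sample. The log2 difference in E0771 was 0.30 (SE 0.10, 95% interval 0.08 to 0.53, adjusted p = 0.0575), just short of the threshold. Without replicate 1 of E0771shCtrl it was 0.37 (adjusted p = 0.0481), and without replicate 1 of E0771shPTN it was 0.37 (adjusted p = 0.0223), both past the threshold, as was 0.34 with median-of-ratios scaling (adjusted p = 0.0484). In E0771-LG Csf1 fell by 0.82 (SE 0.12, 1.77-fold, adjusted p = 0.000503). The effects differed by −1.12 (SE 0.17, 95% interval −1.49 to −0.76, adjusted p = 0.000325).

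The receptors were at or near 0 in the cells. Ccr2 (ENSMUSG00000049103, plus strand, chr9:124101950-124113557) had 1 to 6 reads in each of the 12 cell samples. Csf1r (ENSMUSG00000024621, plus strand, chr18:61100598-61132149) had 0, 1 and 0 reads in E0771shCtrl, 0, 9 and 1 in E0771shPTN, 2, 2 and 14 in E0771-LGshCtrl, and 1, 0 and 0 in E0771-LGshPTN. Csf1r shares bases with Hmgxb3 on the other strand, and without strand reads from such bases cannot be told apart. Neither receptor passed the filter in the cells, so the cell results concern the ligands and Csf1.

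**Figure D1:**
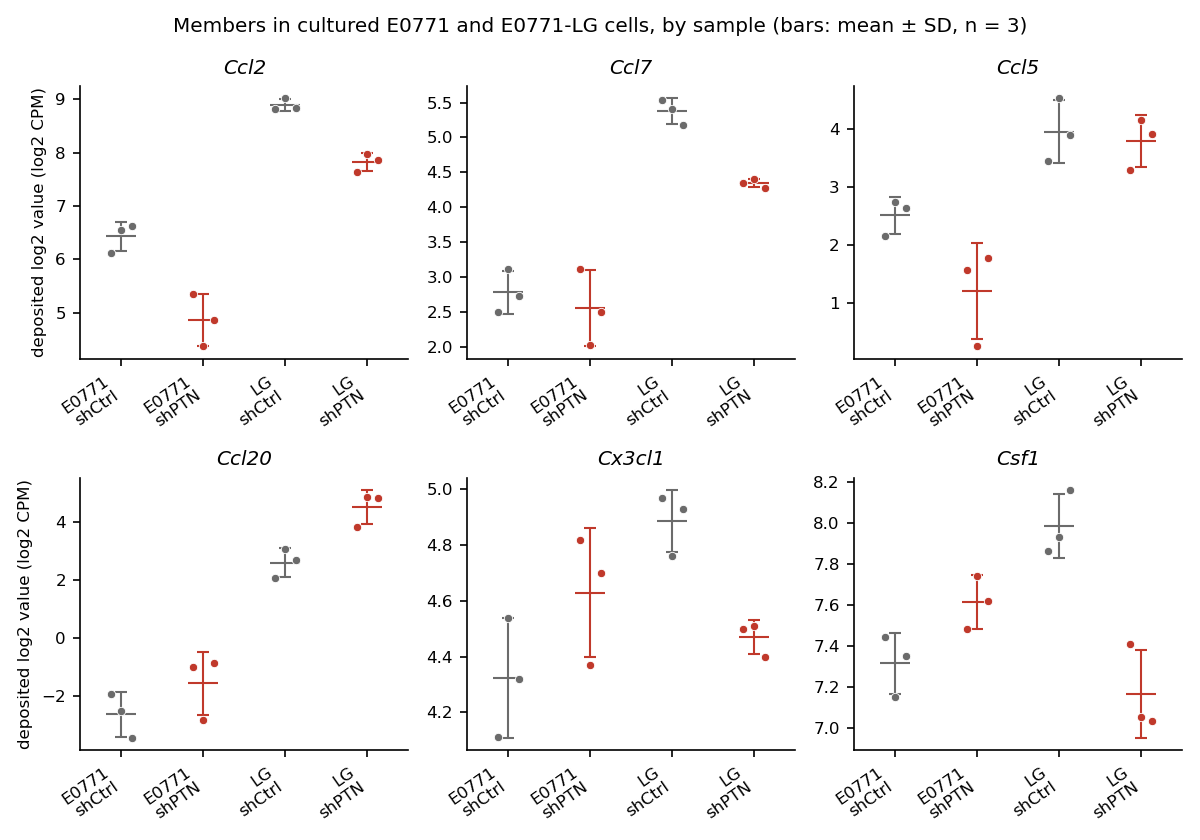
Log2 CPM (y axis) of the 6 members tested in the cells, in each of the 12 cell samples by group (x axis), with the mean and SD of 3 samples. Ccl2 separates all 4 groups, Csf1 has a higher mean with shPTN in E0771 and a lower one in E0771-LG, and Ccl20 rests on 1 to 9 reads in each E0771 sample.

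Counted together, 5 of the 9 members were tested in E0771, and 2 of them (Ccl2 and Ccl5) fell, against 11.7% of all genes tested that fell. Their median log2 difference was −0.23, against −0.03 for all genes. In E0771-LG 6 were tested, of which 4 (Ccl2, Ccl7, Cx3cl1 and Csf1) fell and 1 (Ccl20) rose, where 22.1% of all genes fell and 24.3% rose. The median was −0.62, against 0.05 for all genes. The interaction was tested for 6 members and was below 0 past the threshold for 2 (Cx3cl1 and Csf1), against 15.7% of all genes. Ccl20 passed the filter of the interaction through the E0771-LG samples, and the median of the other 5 was −0.72, against 0.08 for all genes. For Ccl20 the interaction was 0.86 (SE 0.79, adjusted p = 0.416), or 1.53 (adjusted p = 0.0068) with a pseudocount of 1.

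Levels of different genes were compared per kb of exon. In E0771shCtrl Ccl2 stood at 76.7 CPM per kb (61.3 to 86.1 over the 3 samples) and Csf1 at 30.2 (26.8 to 32.9). Next came Ccl7 at 8.66 (7.02 to 10.8), Ccl5 at 6.01 (4.59 to 6.99) and Cx3cl1 at 5.13 (4.38 to 5.93), of which Ccl5 and Cx3cl1 overlapped. In E0771shPTN the order of the leading pair was the other way, with Csf1 at 37.2 CPM per kb (33.8 to 40.6) and Ccl2 at 26.6 (18.1 to 36.1), and the ranges overlapped. Ccl7 at 7.65 (5.05 to 10.9) and Cx3cl1 at 6.35 (5.24 to 7.19) overlapped below them, and Ccl5 was the lowest of the 5 at 2.61 (1.21 to 3.53). In E0771-LGshCtrl Ccl2 reached 419 CPM per kb (400 to 455), followed by Ccl7 at 52.1 (45.3 to 58) and Csf1 at 48.1 (44 to 54.2), whose ranges overlapped. Ccl5 followed at 17 (11.4 to 24.1), Cx3cl1 at 7.55 (6.91 to 7.97) and Ccl20 at 4.43 (2.93 to 5.85), each below the range of the gene before it. In E0771-LGshPTN Ccl2 stood at 200 CPM per kb (175 to 221), Csf1 at 27.3 (24.7 to 32.2) and Ccl7 at 25.3 (24.2 to 26.3), the latter pair overlapping. Ccl20 at 17.1 (10.1 to 20.9) overlapped Ccl5 at 14.9 (10.2 to 18.6). Ccl20 was thus lower per kb than Cx3cl1 in each E0771-LGshCtrl sample and higher in each E0771-LGshPTN sample, where Cx3cl1 lay between 5.37 and 5.79.

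Between the control cells, all 6 members tested were higher in E0771-LG than in E0771, against 19.2% of all genes tested. They share the control samples with the knockdown comparisons, so the values stand side by side and are not set against each other. Ccl2 was higher by 2.46 on the log2 scale (SE 0.13, 5.52-fold, adjusted p = 1.15e-06) and Ccl7 by 2.60 (SE 0.18, 6.07-fold, adjusted p = 4.64e-06). Ccl5 was higher by 1.45 (SE 0.28, 2.73-fold, adjusted p = 0.00176). The smaller differences were 0.67 for Csf1 (SE 0.11, 1.59-fold, adjusted p = 0.000776) and 0.56 for Cx3cl1 (SE 0.14, 1.48-fold, adjusted p = 0.00777). In each of these genes 3 of 3 E0771-LG samples were above every E0771 sample. How many of all genes separate in this way was not counted. Ccl20 passed the filter only through the E0771-LG samples and so had to differ, and without it the count was 5 of the other 5. Its 354 reads of 55.48 M in E0771-LGshCtrl against 8 of 54.29 M in E0771shCtrl give a ratio of 43.3 (95% exact interval 21.7 to 101). The median log2 difference of the other 5 was 1.45, against −0.15 for all genes.

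Between the knockdown cells, samples that the control comparison does not use, 4 of 6 members were higher in E0771-LG, against 26.2% of all genes, and 1 was lower, against 37.7%. Without Ccl20, which again passed the filter through E0771-LG, 3 were higher and 1 lower of the other 5. The difference was 2.96 for Ccl2 (SE 0.21, 7.79-fold, adjusted p = 4.14e-06), 2.59 for Ccl5 (SE 0.39, 6.03-fold, adjusted p = 0.000167) and 1.79 for Ccl7 (SE 0.25, 3.46-fold, adjusted p = 8.11e-05). Csf1 was lower in 3 of 3 E0771-LGshPTN samples, with a difference of −0.45 (SE 0.11, 1.37-fold lower, adjusted p = 0.00488). Cx3cl1 differed by −0.16 (SE 0.14, adjusted p = 0.351). For Ccl20, 1345 reads of 56.60 M stood against 19 of 53.00 M, a ratio of 66.3 (95% exact interval 42.3 to 110). The median of the 5 without Ccl20 was 1.79, against −0.10 for all genes.

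Median-of-ratios scaling moved the median difference of all genes from −0.15 to 0.00 between the control cells, and the share of called genes that were lower in E0771-LG from 64.7% (3672 lower, 2004 higher) to 49.7% (2827 lower, 2857 higher). Under that scaling the 6 members were still all called higher between the control cells, with differences of 2.61 for Ccl2, 2.75 for Ccl7, 1.60 for Ccl5, 5.40 for Ccl20, 0.71 for Cx3cl1 and 0.82 for Csf1. Between the knockdown cells it moved the median of all genes from −0.10 to 0.01. There the differences were 3.08 for Ccl2, 1.91 for Ccl7, 2.71 for Ccl5, 6.23 for Ccl20, −0.34 for Csf1 (adjusted p = 0.0237) and −0.04 for Cx3cl1 (adjusted p = 0.806).

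In 4T1 tumors all 9 members had values, led by Ccl12. In bulk tumors fewer cells of a type and less RNA per cell cannot be told apart. The mean length-normalized value with C44 was 264 for Ccl12 (188 to 345 over the 3 tumors) and 199 for Csf1r (174 to 221), which overlapped. Csf1 at 121 (93.8 to 152), Ccl7 at 110 (80.6 to 128), Ccr2 at 99.5 (92.3 to 111) and Ccl2 at 97.2 (57.2 to 118) overlapped each other, and Cx3cl1 at 81.1 (69.4 to 88) overlapped Ccl2 and Ccl7. Ccl5 stood at 31.6 (19.2 to 40), and Ccl20 at 0.279 was close to the lowest value of the samples and was not tested.

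Ccr2, the receptor that marks inflammatory monocytes, had log2 values of 6.80, 6.58 and 6.54 with C44 and 5.38, 5.97 and 5.62 with 3B10 in 4T1 tumors. Csf1r had log2 values of 7.79, 7.67 and 7.45 with C44 and 6.47, 7.52 and 6.89 with 3B10. Each 3B10 tumor was below each C44 tumor for Ccr2, whereas for Csf1r replicate 2 of 3B10 lay within the C44 range. The log2 difference of Ccr2 was −0.98 (SE 0.17, 95% interval −1.38 to −0.58, 1.98-fold lower), with an adjusted p of 0.461 by limma that did not pass over all genes while an exact permutation test of the 6 tumors (two-sided) gave p = 0.1, its lowest possible value with 3 in each group. The log2 difference of Csf1r was −0.68 (SE 0.25, 95% interval −1.27 to −0.09, adjusted p = 0.725), lower than the C44 mean in 3 of 3 tumors, and −0.43 without replicate 1 of 3B10. Of the 8 members tested, 1 (Ccr2) did not overlap between groups and was lower, against 4.42% of all genes tested.

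Among the CCR2 ligands, Ccl2 had log2 values of 6.88, 6.87 and 5.85 with C44 and 6.73, 5.68 and 5.31 with 3B10 in 4T1 tumors. Ccl7 had 7.01, 6.93 and 6.34 with C44 and 6.80, 6.41 and 5.71 with 3B10, and Ccl12 had 8.43, 7.56 and 8.03 against 8.01, 7.54 and 7.81. For all of them the groups overlapped, and replicate 3 of C44 was the lowest C44 tumor for Ccl2 and Ccl7. The log2 differences were −0.63 for Ccl2 (SE 0.41, adjusted p = 0.889), −0.46 for Ccl7 (SE 0.30, adjusted p = 0.889) and −0.22 for Ccl12 (SE 0.23, adjusted p = 0.952), each with 2 of 3 3B10 tumors below the C44 mean. Ccl5 had log2 values of 4.30, 5.34 and 5.18 with C44 and 5.10, 3.97 and 3.64 with 3B10, a difference of −0.70 (SE 0.42, adjusted p = 0.88) between groups that overlapped, with 2 of 3 tumors below. Cx3cl1 lay between 5.95 and 6.47 over the 6 tumors, with a difference of −0.17 (SE 0.15, adjusted p = 0.944). Csf1 lay between 6.56 and 7.25, with a difference of −0.13 (SE 0.18, adjusted p = 0.969), and for both genes 3 of 3 3B10 tumors were below the C44 mean.

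The 8 members tested in 4T1 tumors all had a lower mean with 3B10, against 48.4% of all genes tested. Their median log2 difference was −0.54, against 0.01 for all genes. After limma's adjustment 0 of them passed, as did 0% of all genes. Before adjustment 2 (Ccr2 and Csf1r) had a p under 0.05, against 6.27% of all genes.

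**Figure D2:**
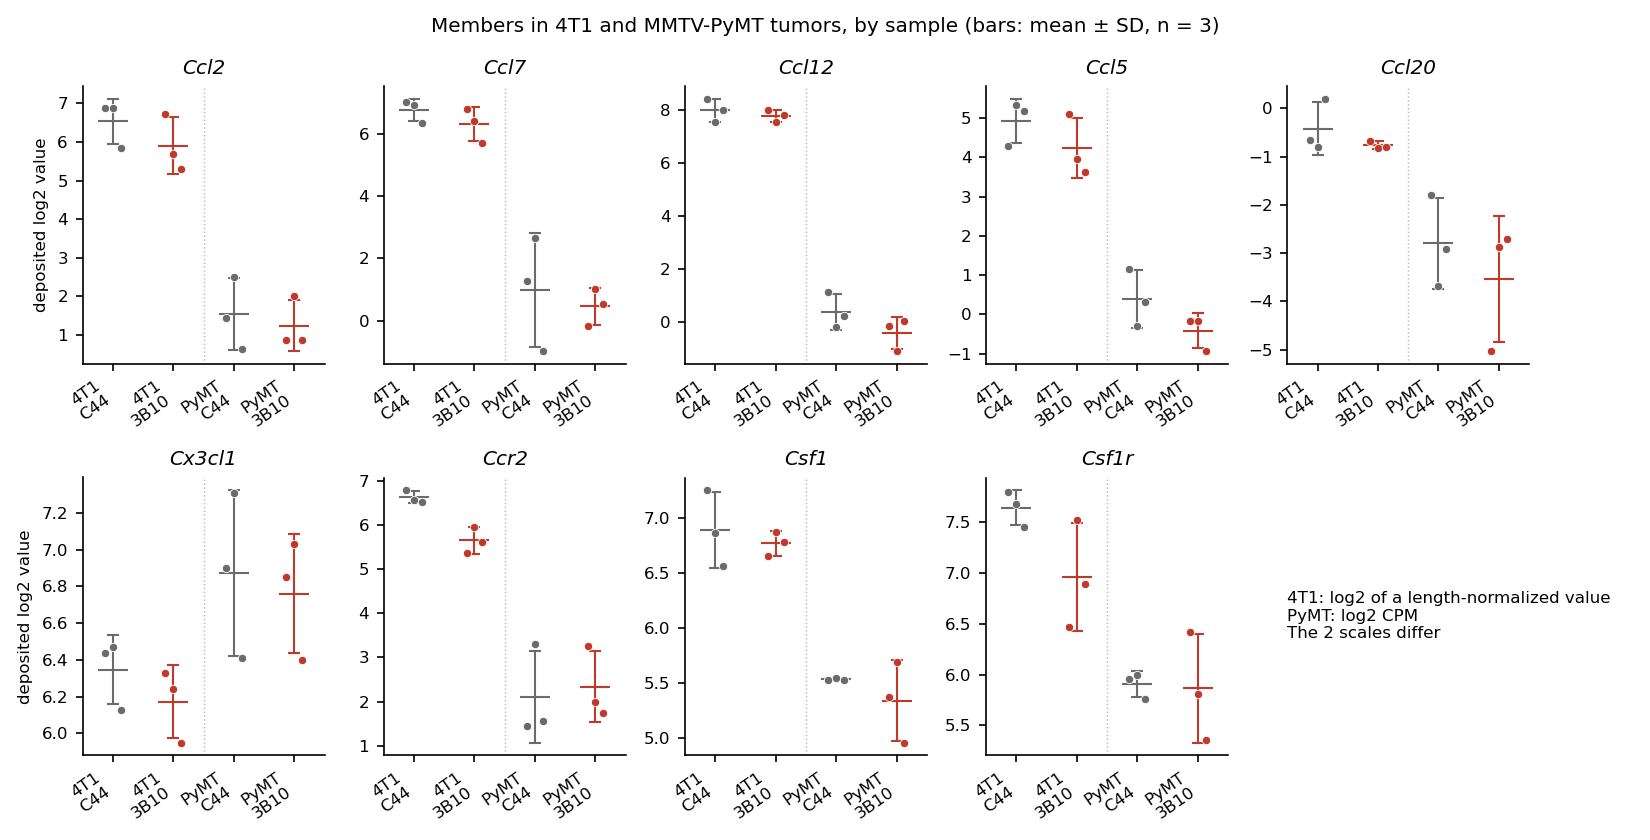
Values of the 9 members in each 4T1 and MMTV-PyMT tumor (y axis, log2 value in 4T1 and log2 CPM in MMTV-PyMT, scales that are not comparable) by treatment (x axis), with the mean and SD of 3 tumors. In 4T1 tumors Ccr2 lies between 5.38 and 5.97 with 3B10 and between 6.54 and 6.80 with C44.

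In MMTV-PyMT tumors the levels of the members were read per kb of exon. Cx3cl1 led with a mean of 30.8 CPM per kb with C44 (21.6 to 40.5), then Csf1r at 10.4 (9.4 to 11.1) and Csf1 at 8.79 (8.74 to 8.88). Ccl7 at 3.79 (0.599 to 7.78), Ccl2 at 2.91 (1.36 to 4.98), Ccl12 at 2.54 (1.55 to 3.98), Ccl5 at 1.46 (0.812 to 2.28) and Ccr2 at 0.762 (0.401 to 1.45) followed, each overlapping its neighbours in this order. Ccl20 had 5, 1 and 2 reads with C44 and 0, 2 and 2 with 3B10. Ccl12 with 8 to 41 reads per tumor, Ccl5 with 8 to 42 reads and Ccl20 did not pass the filter and were not tested.

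Ccl2 was 1.45, 2.51 and 0.65 log2 CPM with C44 and 0.86, 2.00 and 0.86 with 3B10 in MMTV-PyMT tumors, and Ccl7 was 1.28, 2.65 and −0.98 against −0.17, 1.02 and 0.53. Replicate 2 of C44 was the highest tumor for both, and replicate 3 of C44 the lowest, with 29 reads of Ccl2 and 9 of Ccl7. Ccr2 was 1.45, 3.30 and 1.56 log2 CPM with C44 and 3.26, 2.00 and 1.75 with 3B10. Csf1r was 5.96, 6.00 and 5.76 with C44 and 6.42, 5.81 and 5.36 with 3B10, so that the 3B10 group held both its highest and its lowest tumor. Csf1 was 5.53, 5.55 and 5.53 log2 CPM with C44, with an SD of 0.01, and 5.37, 5.69 and 4.96 with 3B10. Cx3cl1 was 6.90, 7.31 and 6.41 log2 CPM with C44 and 6.85, 7.03 and 6.40 with 3B10. The groups overlapped for each of the 6 members tested.

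The log2 difference with 3B10 in MMTV-PyMT tumors was −0.30 for Ccl2 (SE 0.56), −0.52 for Ccl7 (SE 0.88) and −0.11 for Cx3cl1 (SE 0.26). It was 0.23 for Ccr2 (SE 0.60), −0.20 for Csf1 (SE 0.19) and −0.04 for Csf1r (SE 0.26). The adjusted p by limma was 1 for each of the 6. Their median was −0.16, against 0.05 for all genes. After limma's adjustment 0 of the 6 passed, as did 0% of all genes, and before adjustment 0 had a p under 0.05, against 2.7% of all genes. The difference between the models, tested for the same 6 members as an interaction, was −1.21 for Ccr2 (SE 0.66, 95% interval −2.65 to 0.23) and −0.63 for Csf1r (SE 0.39), both with an adjusted p of 1. Without replicate 1 of MMTV-PyMT 3B10 they were −0.75 and −0.35. By limma 0 of the 6 interactions passed, as did 0% of all genes, and 0 had an unadjusted p under 0.05, against 2.31% of all genes. The log2 difference of Ccr2 with 3B10 is therefore not shown to differ between the models, and it did not pass limma's adjustment in either.

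**Figure D3:**
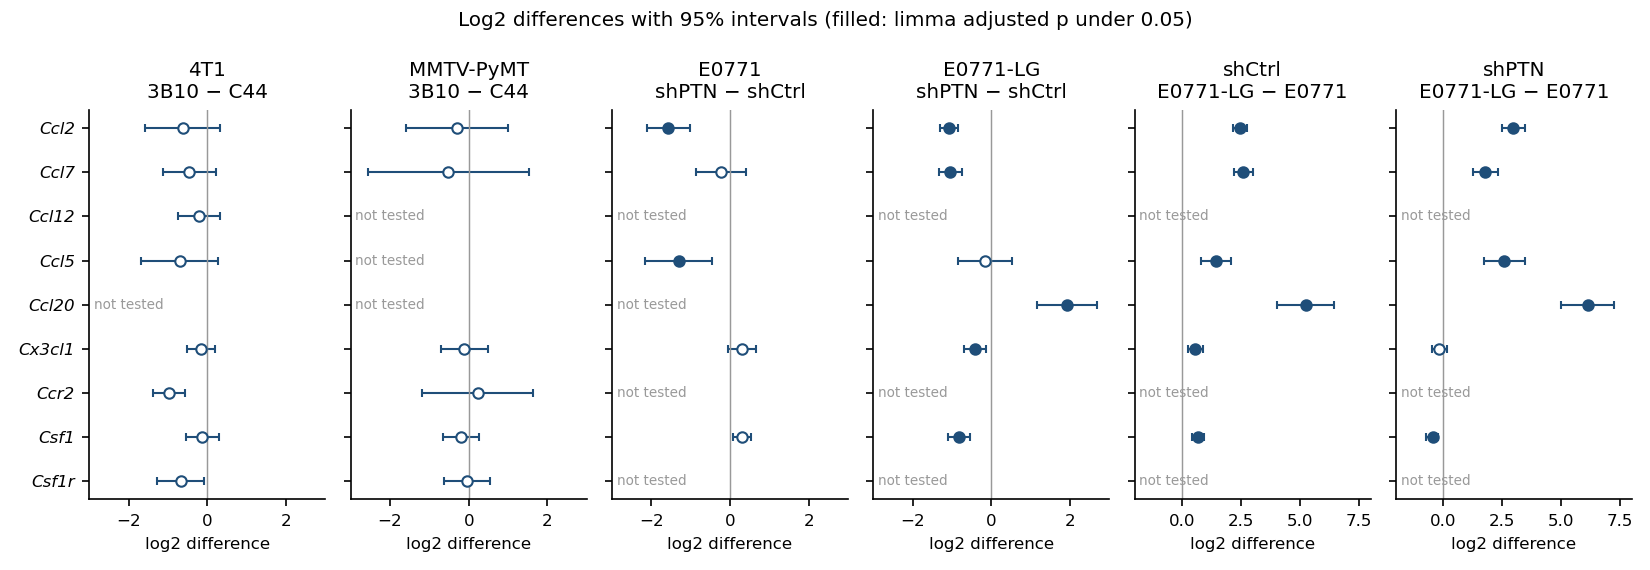
Log2 difference of each member (x axis, with 95% intervals) in the 4 experiments and in E0771-LG against E0771, with filled points at an adjusted p under 0.05 by limma. The last 2 panels have a wider x axis, and their intervals for Ccl20 depend on the offset of 0.5 reads. The tumor panels hold 0 filled points, and Csf1 lies at 0.30 in E0771 and −0.82 in E0771-LG.

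Marker genes of other cell types were read beside these results. In 4T1 tumors 14 of 15 listed macrophage and monocyte genes were in the table, and their summed length-normalized value was 13100, 10100 and 12400 with C44 and 5830, 10200 and 6400 with 3B10, with Lyz2 the most abundant. Replicate 2 of 3B10, which had the highest Csf1r and Ccr2 of its group, also had the highest macrophage sum. Of these 14 genes 13 had a lower mean with 3B10 (median log2 difference −0.45), against 48.4% of all genes tested. At an unadjusted p under 0.05, which 6.27% of all genes had, were 5 of the 14. The 5 leukocyte genes summed to 950, 920 and 961 with C44 and 758, 813 and 586 with 3B10, and 5 of 5 had a lower mean (median −0.42, 2 at an unadjusted p under 0.05). The 6 neutrophil genes found of 8 summed to 1200, 1210 and 1940 against 1270, 988 and 828, and 5 of 6 had a lower mean (median −0.64). Of the 4 at an unadjusted p under 0.05, 3 were lower and Mmp9 was higher (log2 difference 1.23, SE 0.52, adjusted p = 0.776). The 6 T cell genes found of 8 summed to 77.5, 109 and 120 against 52.9, 60.9 and 19.2, led by Cd3g, and 6 of 6 had a lower mean (median −1.28) and an unadjusted p under 0.05.

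The 7 epithelial genes had higher sums with 3B10 in 4T1 tumors, namely 3400, 3800 and 3760 with C44 and 5210, 5010 and 5340 with 3B10, led by Krt18. All 6 of them that were tested had a higher mean with 3B10 (median 0.62), 5 at an unadjusted p under 0.05. The 7 fibroblast genes found of 8 summed to 1320, 1800 and 1170 against 964, 4070 and 1640, led by Col1a1, so replicate 2 of 3B10 stood apart. Of these 7, 5 had a higher and 2 a lower mean (median 0.26), and at an unadjusted p under 0.05 were Dcn, which was higher (log2 difference 0.66, SE 0.20), and Pdgfra, which was lower (−0.46, SE 0.19). The 5 endothelial genes found of 6 summed to 105, 279 and 162 against 141, 219 and 94.7, led by Cdh5 in 5 of the 6 tumors (5 of 5 with a lower mean, median −0.24, 0 at an unadjusted p under 0.05). Past limma's adjustment there were 0 genes of these lists. Of the 14 macrophage genes 0 were at the lowest value in a 4T1 tumor, and the part of these cell types in the values of Ccr2 and Csf1r was not tested.

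**Figure D4:**
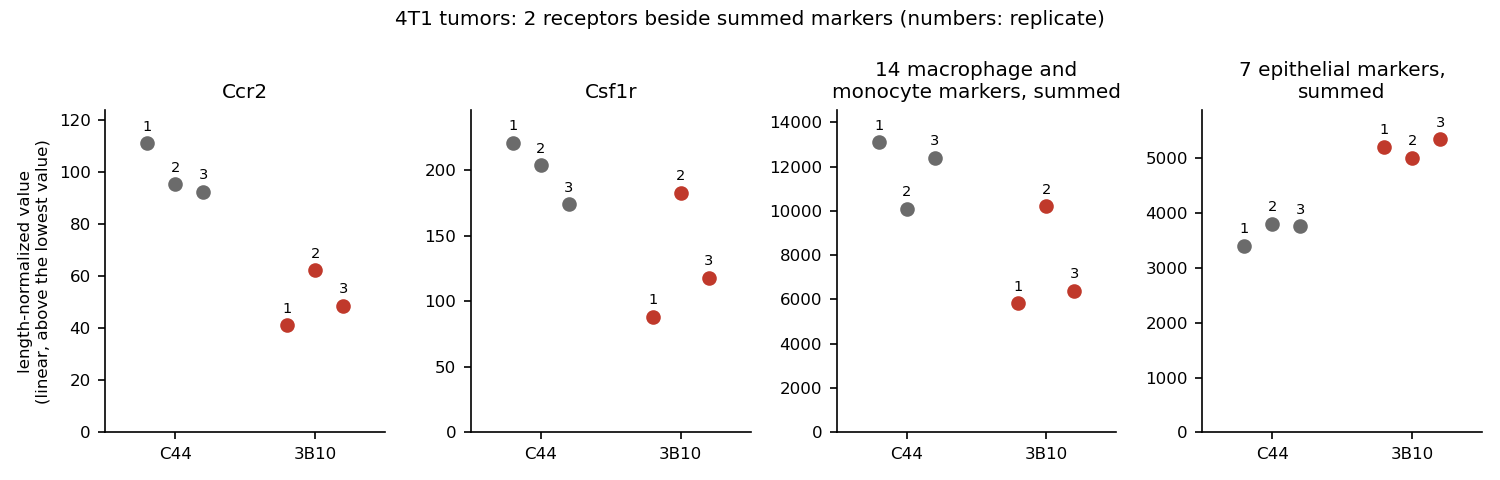
Length-normalized values (y axis, linear and from 0) of Ccr2 and Csf1r and the summed values of 14 macrophage and monocyte genes and 7 epithelial genes in the 6 4T1 tumors, by treatment (x axis), with replicate numbers at the points. Replicate 2 of 3B10 is the highest of its group for Ccr2, Csf1r and the macrophage sum, and the epithelial sum is 5010 or more in each 3B10 tumor and 3800 or less in each C44 tumor.

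In MMTV-PyMT tumors the macrophage and monocyte genes summed to 935, 1070 and 544 CPM with C44 and 1060, 646 and 805 with 3B10, led by Lyz2, Cd14 or C1qa, and 7 of 14 had a lower mean (median 0.00). The leukocyte genes summed to 123, 122 and 98.8 CPM against 155, 102 and 95.7, led by Laptm5 (median 0.01). Replicate 1 of 3B10 was the highest 3B10 tumor for both sums and for Csf1r and Ccr2. The medians of the other lists were −0.04 for neutrophil, 0.12 for T cell, −0.08 for epithelial, −0.18 for fibroblast and 0.03 for endothelial genes, and 0 genes of these lists passed the adjusted threshold by limma. At an unadjusted p under 0.05 by limma were 1 macrophage gene, 1 epithelial gene and 0 of the other marker lists, against 2.7% of all genes.

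In the cells the macrophage and monocyte genes summed to 24.1, 41.5 and 31.4 CPM in E0771shCtrl, 59.8, 49.5 and 53 in E0771shPTN, 28.4, 32.5 and 31 in E0771-LGshCtrl and 22.7, 28.6 and 29.7 in E0771-LGshPTN, with 7 to 9 of the 14 at the lowest value of the sample. Most of the sum came from Lyz2, Cd68 and Cd14, which other cells also express. In each cell sample Mertk had 56 to 258 reads, whereas C1qa, C1qc and Ms4a7 had 0 and Adgre1, Fcgr1, C1qb, Itgam and Cybb at most 3. Aif1 had 0 reads in E0771, 0 to 5 in E0771-LGshCtrl and 0 to 9 in E0771-LGshPTN. Mrc1 had 59 to 91 reads in E0771-LGshCtrl and 41 to 49 in E0771-LGshPTN, where it fell by 0.81 (adjusted p = 0.0406), and 3 to 16 in E0771. Of these genes 4 were tested in E0771 and 2 rose, against 8.89% of all genes, and 5 were tested in E0771-LG, where 2 fell and 2 rose, against 22.1% and 24.3% of all genes. The leukocyte genes summed to 15.4, 21.4 and 19.6 CPM in E0771shCtrl and 47.6, 32.3 and 38.3 in E0771shPTN, led by Coro1a, and to 91.6, 88.5 and 88.6 in E0771-LGshCtrl and 47.4, 52.9 and 56 in E0771-LGshPTN, led by Laptm5. Of these, 2 were tested in each line, where 2 rose in E0771 (8.89% of all genes) and 1 fell in E0771-LG (22.1% of all genes). Of the epithelial markers Krt8 gave most of the sum in both lines, whereas Cdh1 had at most 7 reads in a cell sample and Krt18 had 0 to 3 reads in E0771. The epithelial sum was 158, 204 and 164 CPM in E0771-LGshCtrl and 424, 565 and 516 in E0771-LGshPTN, against 99.3, 114 and 107 in E0771shCtrl and 115, 98.9 and 108 in E0771shPTN. Of 3 epithelial genes tested in E0771-LG Krt18, with 13 to 18 reads with shCtrl and 117 to 150 with shPTN, passed the filter only through shPTN and so had to rise, and the other 2 rose, against 24.3% of all genes. Of 2 tested in E0771 0 passed by limma, 1 having an unadjusted p under 0.05.

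Fibroblast genes were read in both lines. The 7 found in the table summed to 74.8, 101 and 86.3 CPM in E0771shCtrl, led by Col1a1 or Pdgfra, and to 331, 293 and 330 in E0771shPTN, led by Col3a1. In E0771-LG they summed to 92, 145 and 107 CPM with shCtrl and 58.3, 66.2 and 73.6 with shPTN, led by Pdgfra. Each shPTN sample was thus above each shCtrl sample in E0771 and below each in E0771-LG, as for Csf1 and for the sum of the leukocyte genes. Of these genes 5 were tested in E0771 and 5 rose (median log2 difference 1.61), against 8.89% of all genes. Among them Col1a2, with 5 to 30 reads with shCtrl and 55 to 89 with shPTN, passed the filter largely through shPTN, which favors a rise. In E0771-LG 6 were tested, where Col1a2 had 8 to 21 reads with shCtrl and 19 to 48 with shPTN. There Col1a1, with 184 to 211 reads with shCtrl and 3 to 12 with shPTN, passed the filter only through shCtrl and so had to fall, and of the other 5 genes 1 fell and 1 rose (median −0.45), against 22.1% and 24.3% of all genes. The interaction was below 0 past the threshold for 4 of 6, against 15.7% of all genes, and above 0 for 1, Dcn with 0 to 4 reads in E0771, against 18.3%. The T cell genes summed to 3.97 to 6.2 CPM in E0771shCtrl, 7.7 to 8.19 in E0771shPTN, 3.17 to 6.23 in E0771-LGshCtrl and 9.57 to 12.9 in E0771-LGshPTN, led by Lck, which rose in E0771 by 0.82 (adjusted p = 0.0274) and in E0771-LG by 1.32 (adjusted p = 0.00326). The other 2 T cell genes tested in E0771-LG, Cd3d and Cd8b1, passed the filter only through shPTN and so had to rise. The neutrophil genes summed to 4.04 to 10.3 CPM in E0771, 22.6 to 30.8 in E0771-LGshCtrl and 11.1 to 16.4 in E0771-LGshPTN, where 1 of 2 tested fell, against 22.1% of all genes. The endothelial genes summed to 3.31 CPM or less in each cell sample, with 1 gene tested in E0771-LG and not called. The part of these marker genes in the cell results was not tested.

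Other genes of the pathway were read as lists. Of 12 further CC chemokines 9 were in the table, and in 4T1 tumors 8 of these 9 had a lower mean with 3B10, 4 with an unadjusted p under 0.05 and 0 past limma's adjustment (median log2 difference −0.86). Of all genes tested in 4T1, 48.4% had a lower mean and 6.27% an unadjusted p under 0.05. Their summed value was 1170, 1030 and 940 with C44 and 603, 546 and 366 with 3B10. Ccl6, a myeloid chemokine and the most abundant gene of this list in 5 of the 6 tumors, had a mean log2 value of 9.20 with C44 and 7.72 with 3B10, a difference of −1.48 (SE 0.23, adjusted p = 0.375). In MMTV-PyMT tumors the median was −0.06 for the 5 chemokines tested, and 0 passed limma's adjustment.

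For CSF1R signalling in the receiving cell, 8 of 8 genes had a lower mean with 3B10 in 4T1 tumors (median −0.38, 4 at an unadjusted p under 0.05), and their sum, led by the adaptor Tyrobp, was 1690, 1650 and 1920 with C44 and 1400, 1490 and 1180 with 3B10. Of a list of other colony stimulating factors, related ligands and their receptors, in which only Il34 is a ligand of CSF1R, 7 of 9 were in the table, and 7 of 7 had a lower mean (median −0.46, 3 at an unadjusted p under 0.05). Of the 5 genes for shedding of CSF1 and CX3CL1 4 had a lower mean (median −0.17), and the 1 with an unadjusted p under 0.05 was Rhbdf1, whose mean was higher (log2 difference 0.34, SE 0.12, adjusted p = 0.725). Both atypical receptors or binders tested had a lower mean (median −0.64, 1 at an unadjusted p under 0.05). Of all these, 0 passed limma's adjustment. The shares of all genes tested in 4T1 were 48.4% with a lower mean and 6.27% with an unadjusted p under 0.05. In MMTV-PyMT tumors the medians were 0.00, −0.17, −0.03 and −0.63 in the same order, and 0 genes passed. At an unadjusted p under 0.05 by limma was 1 gene of the colony stimulating factor list and 0 of the others, against 2.7% of all genes.

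In the cells, 1 other CC chemokine was tested in E0771 and 2 in E0771-LG, of which Ccl25 rose in E0771-LG by 0.44 (SE 0.16, adjusted p = 0.0462), against 24.3% of all genes. In E0771 its difference was 0.45 (SE 0.15, adjusted p = 0.0576), between groups that did not overlap, and the interaction was −0.01 (SE 0.21, adjusted p = 0.97). Of the atypical receptors 1 was tested in E0771, Ackr3, which scavenges CXC chemokines. It fell there by 0.39 (SE 0.12, adjusted p = 0.0414), where 11.7% of all genes fell. In E0771-LG its difference was −0.03 (adjusted p = 0.878), and the interaction did not pass (0.36, SE 0.20, adjusted p = 0.174). Of the colony stimulating factor list 1 gene was tested in E0771 and 3 in E0771-LG. In E0771-LG 1 of the 3 rose and 1 fell, against 24.3% and 22.1% of all genes. Il34, the other ligand of CSF1R, rose with shPTN in E0771-LG by 0.66 (SE 0.21, adjusted p = 0.027), where Csf1 fell. Between the control cells Il34 was higher in E0771-LG, with 92 to 127 reads per sample against 6 to 18 in E0771, a difference of 3.18 (SE 0.40, adjusted p = 0.000122). Since the gene passed the filter through the E0771-LG samples it had to differ, and the same holds for Csf3, the granulocyte growth factor, with 45 to 168 reads against 3 to 5. Kitl, the ligand of the related receptor KIT, fell in E0771-LG by 0.55 (SE 0.11, adjusted p = 0.00309), with an interaction of −0.48 (SE 0.15, adjusted p = 0.0222). Of the genes of CSF1R signalling 4 were tested in E0771, where 1 rose (Spi1, by 1.41, adjusted p = 0.00203), against 8.89% of all genes. In E0771-LG 2 were tested, where Plcg2 rose by 1.34 (adjusted p = 0.0024) and Inpp5d fell by 0.50 (adjusted p = 0.00348), against 24.3% and 22.1% of all genes.

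Of the shedding genes 4 were tested in each line, and 1 fell in E0771, against 11.7% of all genes, while 2 fell and 1 rose in E0771-LG, against 22.1% and 24.3% of all genes. Adam10, which encodes a protease that cuts CX3CL1, fell with shPTN in E0771-LG by 0.44 (SE 0.11, adjusted p = 0.00642), in 3 of 3 samples, and had a difference of 0.03 in E0771 (SE 0.08, adjusted p = 0.834). The interaction was −0.46 (SE 0.13, adjusted p = 0.0122). The log2 difference of Adam10 with shPTN was thus below 0 in E0771-LG and above 0 in E0771, as were those of Cx3cl1 and Csf1. Of the 4 shedding genes tested for the interaction, Adam10 was the 1 below 0, where 15.7% of all genes were below 0 past the threshold. The other 3 were above 0, of which 0 passed (median of the 4 0.12). Adam17, the protease that also releases CSF1, had differences of −0.18 in E0771 (SE 0.10, adjusted p = 0.228) and −0.11 in E0771-LG (SE 0.12, adjusted p = 0.503). Rhbdf2, a cofactor of ADAM17, fell in E0771 by 0.74 (SE 0.19, adjusted p = 0.0192) and in E0771-LG by 0.57 (SE 0.19, adjusted p = 0.0357). Its relative Rhbdf1 rose in E0771-LG by 0.41 (SE 0.11, adjusted p = 0.0124), with a difference of −0.02 in E0771 and an interaction of 0.43 (SE 0.16, adjusted p = 0.0517) that did not pass.

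The genes most like Ccl2 over the 12 cell samples, by Pearson's r of the log2 value among 10084 genes, were Nfkbiz (0.987), Akr1b8 (0.984), Metrnl (0.980), Adsl (0.978) and Epha2 (0.976). The samples fall into 4 groups that differ in Ccl2, so these r describe the groups as much as the samples. For Csf1r over the 12 tumors, with the mean of each model taken off, they were Cerk (0.954), Csf2rb (0.940), Wdfy4 (0.937), Dock2 (0.936) and Laptm5 (0.935) among 10889 genes. Of these, Csf2rb and Laptm5 are also on the lists read above.

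The promoters of Ccl20 and Csf1 are shown because these members went in opposite directions with shPTN in E0771-LG. Both are the 250 bases before the gene start in RefSeq on GRCm38.p6, written 5′ to 3′ on the strand of the gene and without exon bases, at chr1:83116516-83116765 on the plus strand for Ccl20 and chr3:107760470-107760719 on the minus strand for Csf1. Capitals mark matches to the NF-kappaB letters, GGGA and CC with any 4 bases between them, on either strand.
Ccl20: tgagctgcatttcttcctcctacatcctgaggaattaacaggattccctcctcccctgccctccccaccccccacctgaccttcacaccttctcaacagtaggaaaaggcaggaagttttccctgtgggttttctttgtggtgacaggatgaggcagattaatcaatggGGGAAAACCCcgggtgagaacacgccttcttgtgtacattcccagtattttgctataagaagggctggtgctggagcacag
Csf1: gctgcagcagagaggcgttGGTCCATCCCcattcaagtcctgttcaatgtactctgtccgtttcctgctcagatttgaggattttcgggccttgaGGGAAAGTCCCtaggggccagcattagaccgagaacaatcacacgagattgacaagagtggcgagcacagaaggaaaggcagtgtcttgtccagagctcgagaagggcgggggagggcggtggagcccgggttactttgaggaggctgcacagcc

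The Ccl20 window holds 1 match, which starts 81 bases before the gene start, and the Csf1 window holds 3, at 231, 155 and 154 bases, of which the last 2 overlap. Of 32851 promoters of this length 17.6% hold these letters. RefSeq promoters were matched for 5 of the 9 members, the others being Ccl12, Cx3cl1 and Ccr2, and these 3 hold 0 matches. On both strands, the AP-1 letters TGANTCA (6.75% of promoters), the ISRE letters, GAAA repeated after any 2 bases (2.98%), and the C/EBP letters TTGCNNAA (9.56%) had 0 matches in the 5. The letters TATAAA (12.4%) matched 1 time each in Ccl12 and Cx3cl1, at 31 and 6 bases before the start. A match describes letters and not a bound site.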

How the data were processed

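Total RNA was sequenced by the authors. Per the labels, reads were aligned to mm10 with HISAT2, counted with featureCounts and analysed with limma and edgeR. The study's methods name HISAT2 with StringTie for alignment and assembly, then Rsubread and edgeR, and do not name limma. The filter and the step that made the log2 values are not given in the sources used here. The deposited table gives log2 values of 12091 genes for the 24 samples. In 18 samples 100% of the values off the log scale were whole reads within 0.01, and the slope of the log2 value on log2 gene length was 0.03 in MMTV-PyMT C44 and 0.07 in E0771shCtrl; the 4T1 C44 values had no read steps and a slope of −0.72.

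The deposited log2 values were fitted per comparison in R 4.3.3 with limma 3.58.1 (lmFit, then eBayes with trend and robust), over genes that, once the log was undone and the sample's lowest value taken off, reached 1 in at least 3 samples. Interaction terms were fitted over both experiments, with at least 1 in at least 3 of the 12 cell samples, or of the 6 tumors of each model. The comparisons tested 11467 genes in 4T1, 11361 in MMTV-PyMT, 10394 in E0771, 10405 in E0771-LG, 10411 between control cells and 10508 between knockdown cells; the interactions tested 10600 genes in cells and 10890 in tumors. Single values were checked by exact two-sided permutation tests, and ratios of reads have exact Clopper-Pearson intervals. The fit was tested on simulated data.

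The members and lists were chosen with earlier results of these data known. The genes named are Ptn, the 9 members, listed genes that were called or most abundant, and, for Ccl2 and Csf1r, the 5 genes most like them. Cdh1 and genes not tested are named in addition, after their values were seen. A list of further chemokine receptors is not reported here. Alternatives were no filter, a stricter filter of 5, pseudocounts of 1 and 0.1, all 24 samples in one fit, eBayes that was not robust, median-of-ratios scaling, voom weights on recovered reads, a block for the replicate number, and leaving out each sample. Gene positions came from GENCODE M21 and promoters from RefSeq, and plots from Python 3.11.15, numpy 2.4.6 and matplotlib 3.10.9.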

Additional observations from a re-analysis of the deposited data

Results flagged for a closer look

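The effect of shPTN on Csf1 differed between the cell lines, by −1.12 on the log2 scale in the interaction term of limma (SE 0.17, adjusted p = 0.000325). The 3 E0771shPTN samples were above and the 3 E0771-LGshPTN samples below the control samples of their line.

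The effect on Cx3cl1 also differed, by −0.72 (SE 0.20, adjusted p = 0.0141). Its groups overlapped in E0771 and did not overlap in E0771-LG. With all 24 samples in one fit the interaction is not called (−0.72, adjusted p = 0.0606), nor is the fall in E0771-LG (adjusted p = 0.0888), which is also lost when any of 3 single samples is left out (adjusted p = 0.0516 to 0.0747).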

How the results depend on the processing

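Of the values of single members under an alternative, 733 kept their direction and their side of the threshold, 10 lost a call, 10 gained one and 26 changed sign, all 26 when 1 sample was left out. The cause was not tested.

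In E0771, 2 members were called, and 1 (Ccl2) with no filter, with the stricter filter or with all 24 samples in one fit. In E0771-LG, 5 were called, and 3 with all 24 samples (Ccl2, Ccl20 and Csf1). The interaction in the cells was called for 2 members, for 4 with a pseudocount of 1 (Ccl7 and Ccl20 added), and for 1 with all 24 samples (Csf1). Median-of-ratios scaling added Csf1 in E0771 (0.34, adjusted p = 0.0484) and the interaction of Ccl7 (−0.86, adjusted p = 0.0478). With no filter, Csf1r was called in E0771-LG and between control cells, on 2 to 14 against 0 to 1 reads. The stricter filter left Ccl20 out between control cells. The fitted difference of Ccl20 depends on the offset, with 2.63 between control cells and 4.16 between knockdown cells at a pseudocount of 1, and 4.71 and 5.80 at 0.1. voom was not run in the comparisons with 4T1 tumors, which have no recovered reads.

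Leaving out 1 sample at a time, the members called were 0 to 0 in 4T1, 0 to 0 in MMTV-PyMT, 1 to 3 in E0771, 4 to 5 in E0771-LG, 5 to 6 between control cells, 4 to 5 between knockdown cells, 2 to 3 for the interaction in cells and 0 to 0 for that in tumors. Between the lines the lower counts arise because Ccl20 no longer passed the filter without any 1 E0771-LG sample. The interaction was also called for Ccl7 without replicate 2 of E0771shCtrl (−0.98, adjusted p = 0.0386) or of E0771shPTN (−1.07, adjusted p = 0.0131), and for Ccl2 without replicate 1 of E0771shPTN (0.75, adjusted p = 0.0193). Log2 differences that changed sign ranged from −0.29 to 0.06 for Csf1 in 4T1. In MMTV-PyMT they ranged from −0.74 to 0.18 for Ccl2, −1.50 to 0.31 for Ccl7, −0.34 to 0.11 for Cx3cl1, −0.24 to 0.83 for Ccr2 and −0.32 to 0.21 for Csf1r. The range was −0.51 to 0.04 for Ccl7 in E0771 and −0.42 to 0.12 for Ccl5 in E0771-LG. For the interaction in tumors it was −0.82 to 0.11 for Ccl2, −0.77 to 1.04 for Ccl7, −0.28 to 0.17 for Cx3cl1 and −0.12 to 0.25 for Csf1. Without a change of sign, the 4T1 differences ranged from −0.96 to −0.43 for Csf1r, −1.04 to −0.33 for Ccl2, −0.70 to −0.16 for Ccl7, −0.44 to −0.01 for Ccl12, −1.14 to −0.40 for Ccl5 and −0.28 to −0.06 for Cx3cl1, that of Csf1 in MMTV-PyMT from −0.37 to −0.01 and that of Cx3cl1 between knockdown cells from −0.29 to −0.06. The interaction in tumors ranged from −1.81 to −0.75 for Ccr2 and −0.91 to −0.35 for Csf1r, and that in cells from 0.67 to 1.43 for Ccl5, 0.25 to 0.75 for Ccl2, −1.07 to −0.52 for Ccl7 and 0.23 to 1.27 for Ccl20. The difference of Ccr2 in 4T1 stayed between −1.14 and −0.84 over all alternatives, with adjusted p-values by limma of 0.276 to 1.

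Samples with the same replicate number, taken as deviations from the mean of their group, had an r between −0.327 and 0.436 and not above 0.1 in every pair of any comparison, so the numbers were not taken to pair samples. With the replicate block 0 members were called in 4T1, 0 in MMTV-PyMT, 3 in E0771 (Csf1 added, adjusted p = 0.0499), 5 in E0771-LG, 6 between control cells, 5 between knockdown cells, 2 for the interaction in cells and 0 in tumors.

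The depth of the 4T1 samples is unknown. Ccl12, Ccl5 and Ccl20 in MMTV-PyMT tumors, and Ccl12 and both receptors in cells, rest on too few reads for a test.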
